A study of Mus musculus with 6 samples.

Results

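The genes described here are 8 members of the ADAMTS family (a disintegrin and metalloproteinase with thrombospondin motifs): the proteoglycan-cleaving enzymes *Adamts1*, *Adamts4*, *Adamts5*, *Adamts8*, *Adamts9*, *Adamts15* and *Adamts20*, together with the more distant *Adamts12*. They were found by gene symbol, and 8 of 8 were among the 19446 genes of the expression table. ADAMTS proteases are secreted zinc enzymes. The aggrecanase-type members cut the core proteins of aggrecan, versican and related hyaluronan-binding proteoglycans at glutamate-containing sites, and so remove the hydrated matrix that these proteoglycans form. In the heart this activity is known from the breakdown of versican-rich matrix during trabeculation and valve remodelling, and fibroblasts are one of its sources.

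RNA was sequenced from cultured cardiac fibroblasts of 5-week-old mice, in 3 wild-type (WT) libraries and 3 libraries from mice with a disrupted *Charme* gene (CharmeKO). *Charme* is a long noncoding RNA of muscle, and the mutant allele carries a polyadenylation signal inserted into its locus. The cells grew out of explanted atrial tissue pooled from several littermates, on fibronectin and in serum-rich medium. The libraries are called WT 1 to WT 3 and CharmeKO 1 to CharmeKO 3 after the replicate numbers in their titles. Nothing in the titles ties a library to an animal, so p-values measure only the spread between these libraries. In such bulk samples, fewer cells of a type and less RNA per cell cannot be told apart.

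Depth lay between 38330019 and 46797446 reads per library. An entry named CUFF405, taken here to be the *Charme* feature because it is the one identifier from outside Ensembl's naming, had 5, 15 and 11 reads in WT and 0, 6 and 3 in CharmeKO. All 10 fibroblast markers were present, and they summed to 25400 to 53900 CPM (reads scaled to a common library total) in the 6 libraries. Of 12 cardiomyocyte markers, 5 could be measured, with a sum of 3.51 to 18.6 CPM, while *Myh6*, *Myh7*, *Actc1*, *Nppa*, *Pln*, *Myl2* and *Myl7* were not analysed here. The summed CPM ran from 454 to 6110 for 15 of 15 smooth muscle and pericyte markers, 211 to 401 for 10 of 12 endothelial, 25.7 to 438 for 12 of 14 haematopoietic and 73 to 531 for 11 of 12 mesothelial and epicardial markers. *Thy1*, a fibroblast surface marker, had 4600, 14700 and 29500 normalised reads in WT and 4490, 10400 and 2660 in CharmeKO. Its drop in pair 3 was not shared by the summed fibroblast markers, which were at 32300 CPM in WT 3 and 42800 in CharmeKO 3. *Acta2*, the contractile actin of myofibroblasts, ranged from 5420 normalised reads in CharmeKO 2 to 156000 in WT 3.

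The part of the transcript that makes these genes proteases is the zinc site of the catalytic domain, shown here because all 8 share it. Each run below is 36 coding bases on the coding strand of a GENCODE transcript on build GRCm38, and the capitals mark the codons of the 3 zinc-binding histidines and of the catalytic glutamate. The interval given spans the intron that divides the site, since in all 8 genes it lies across the border of consecutive exons.
*Adamts1*, chr16:85799188-85799545, minus strand, exons 3 and 4: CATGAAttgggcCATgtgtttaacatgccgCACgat
*Adamts4*, chr1:171253210-171253918, plus strand, exons 3 and 4: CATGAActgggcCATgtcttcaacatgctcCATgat
*Adamts15*, chr9:30911252-30911690, minus strand, exons 2 and 3: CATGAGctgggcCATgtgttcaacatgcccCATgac
*Adamts8*, chr9:30952721-30953381, plus strand, exons 3 and 4: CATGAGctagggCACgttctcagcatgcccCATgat
*Adamts5*, chr16:85878012-85887826, minus strand, exons 2 and 3: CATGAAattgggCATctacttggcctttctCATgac
*Adamts9*, chr6:92905282-92908493, minus strand, exons 8 and 9: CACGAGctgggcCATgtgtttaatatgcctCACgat
*Adamts20*, chr15:94353675-94355296, minus strand, exons 8 and 9: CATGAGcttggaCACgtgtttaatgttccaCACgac
*Adamts12*, chr15:11241529-11255567, plus strand, exons 7 and 8: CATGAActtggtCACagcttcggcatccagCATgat
The runs of *Adamts4* and *Adamts15* matched at 32 of 36 positions and those of *Adamts1* and *Adamts9* at 31. The lowest match of any pair was 20 of 36. Over the whole aligned proteins, identity was highest between *Adamts9* and *Adamts20* at 55.5% and reached 53.2% between *Adamts1* and *Adamts15*. *Adamts12* stood apart, sharing 33.9% to 39.0% of aligned residues with the other 7. Some members are also neighbours in the genome: *Adamts1* and *Adamts5* lie 53059 bases apart on chromosome 16, and *Adamts15* and *Adamts8* 20109 bases apart on chromosome 9, with 0 protein-coding genes between them in both cases.

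The question put to each gene was whether its RNA differed between CharmeKO and WT fibroblasts. No member passed the threshold of an adjusted p under 0.05 in limma on log2(normalised read + 1) values, and in the 7 members that could be tested the WT and CharmeKO libraries overlapped. With the replicate number as a block, DESeq2 called *Adamts15* higher and *Adamts12* lower in CharmeKO, and both calls were lost on leaving out one of the replicate pairs. *Adamts20* was close to absent and fell below the filter, which asked for 10 reads in 2 or more libraries. Of the other 7, 4 were higher and 3 lower in CharmeKO, with a median log2 fold change of 0.001, against 0.002 over all 15948 genes tested. *Adamts8* passed the filter through CharmeKO libraries alone, which favoured its higher direction, and without it 3 were higher and 3 lower with a median of -0.033. A fold change below is CharmeKO minus WT on this log2 scale, where the added 1 shrinks the differences of weakly expressed genes. The adjusted p in limma was 0.9999 for each of the 7 tested members. Values in single libraries are normalised reads, rounded to 3 significant digits.

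*Adamts1* and *Adamts5* carried most of the group's RNA. *Adamts1*, a protease of versican and aggrecan that is induced by inflammatory signals (ENSMUSG00000022893, GRCm38 chr16:85793827-85803113, minus strand), had 17400, 13600 and 15200 normalised reads in WT 1 to 3 and 15800, 11100 and 17800 in CharmeKO 1 to 3. CharmeKO held both the highest library and the lowest one, so that the WT range lay inside the CharmeKO range. Its means were 15400 ± 1920 normalised reads (SD, n = 3) in WT and 14900 ± 3470 (SD, n = 3) in CharmeKO. This is a log2 fold change of -0.07 (SE 0.237). The sign turned without WT 1 (0.024) and without CharmeKO 2 (0.13). Its 6 libraries lay within 0.69 on the log2 scale, and 29% of the genes tested had a smaller range.

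*Adamts5*, the main aggrecan-degrading enzyme of mouse cartilage (ENSMUSG00000022894, chr16:85856173-85901828, minus strand), had 41800, 13500 and 14000 normalised reads in WT and 35200, 11700 and 20900 in CharmeKO. The libraries numbered 1 were the highest of both genotypes. Mean values were 23100 ± 16100 in WT and 22600 ± 11800 in CharmeKO (SD, n = 3 each). The log2 fold change was 0.04 (SE 0.573), and its sign turned without WT 2 (-0.24), WT 3 (-0.21) or CharmeKO 1 (-0.35). Divided by exon length, *Adamts1* had 2900 ± 362 normalised reads per kb in WT and *Adamts5* had 2140, which placed their mean levels over all libraries above 96.3% and 94.9% of genes. These 2 did not keep a fixed proportion. The ratio of *Adamts5* to *Adamts1* per kb was 1.18, 0.49 and 0.454 in WT and 1.09, 0.52 and 0.578 in CharmeKO, so the pair was near parity in the libraries numbered 1 of both genotypes and *Adamts1* predominated in the others.

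*Adamts4* and *Adamts9* were expressed at intermediate levels and were lowest in the same libraries. *Adamts4*, first known as aggrecanase-1 (ENSMUSG00000006403, chr1:171250421-171260637, plus strand), had 644, 2910 and 2680 normalised reads in WT and 671, 1760 and 1580 in CharmeKO. WT 1 and CharmeKO 1 were nearly equal and far below the other 4 libraries, where both WT values exceeded both CharmeKO values. The log2 fold change was -0.48 (SE 0.664), and its differences were 0.06, -0.73 and -0.76 in pairs 1, 2 and 3. In DESeq2 with the replicate block its unadjusted p was 0.0472 and its adjusted p 0.829.

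*Adamts9*, a versican-cleaving protease that resembles nematode GON-1 (ENSMUSG00000030022, chr6:92772699-92943492, minus strand), had 1260, 3040 and 2590 normalised reads in WT and 1330, 4400 and 1700 in CharmeKO. CharmeKO 2 was the highest library and WT 1 the lowest, with CharmeKO 1 beside it. The means were 2300 ± 926 in WT and 2480 ± 1670 in CharmeKO (SD, n = 3 each), and the log2 fold change was 0.00 (SE 0.528). It was -0.38 without WT 1 and -0.51 without CharmeKO 2. Genes on the other strand overlap the *Adamts9* locus, and the counting was stranded.

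*Adamts15* varied more than any other member. This versican-cleaving protease is known from muscle development (ENSMUSG00000033453, chr9:30899155-30922452, minus strand). The study had itself singled it out on these libraries, among its most significant genes, and also measured it by real-time PCR, which is not examined here. The values below are therefore no independent evidence of its direction. WT 1 to 3 had 51.2, 3620 and 357 normalised reads (52, 3393 and 325 reads) and CharmeKO 1 to 3 had 102, 9830 and 1280 (106, 9998 and 1475 reads). Libraries numbered 1 were the lowest and libraries numbered 2 the highest of both genotypes, and within each number CharmeKO lay above WT. The highest library exceeded the lowest 192-fold, a range of 7.56 on the log2 scale, where the median gene had 1.07 and 99.7% of genes had less. The replicate number took 92.6% of the variance of its log2 values and genotype 6.96%. A large share for the replicate number was not particular to *Adamts15*. It was 92.6% for *Adamts5*, 87.6% for *Adamts4*, 87.1% for *Adamts9*, 76.2% for *Adamts1* and 71% for *Adamts12*, but 26.7% for *Adamts8*.

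The differences of *Adamts15* within pairs 1, 2 and 3 were 0.98, 1.44 and 1.84 on the log2 scale, with a mean of 1.42 (SD 0.432, 3 pairs). In limma without the block, the fold change of 1.42 had an SE of 2.04. With the replicate block the SE was 0.199 and the unadjusted limma p was 0.00135, with an adjusted p of 0.7997. DESeq2 gave an adjusted p of 1 without the block and 9.07e-07 with it (log2 fold change 1.46, SE 0.232). That adjusted p was 1.38e-05, 0.285 and 1e-04 without replicates 1, 2 and 3, so the call was lost without replicate 2. In the unblocked limma fit the fold change was -0.06 without WT 1, -0.17 without CharmeKO 2, 3.00 without WT 2 and 3.12 without CharmeKO 1. Smooth muscle and pericyte markers summed to 3350, 867 and 6110 CPM in WT and 3150, 454 and 837 in CharmeKO, and cell cycle markers to 521, 217 and 624 and to 511, 211 and 606. Both sums were lowest in a library numbered 2 for each genotype, where *Adamts15* was highest. Fibroblast markers ran the other way, with sums of 25400, 53900 and 32300 CPM in WT and 33500, 44600 and 42800 in CharmeKO. Like *Adamts15*, they were lowest in the library numbered 1 and highest in that numbered 2 of each genotype. Not every fibroblast marker did so: *Vim* had 4850, 2100 and 3100 CPM in WT and 4750, 1550 and 2830 in CharmeKO. *Acta2* and *Tagln* made up most of the smooth muscle and pericyte sum outside CharmeKO 2. Other markers of that list differed: *Mylk* had 5.56, 101 and 117 CPM in WT and 4.59, 183 and 67.9 in CharmeKO. *Rgs5* and *Kcnj8* were highest in the library numbered 2 of each genotype. The part of these markers in the result was not tested.

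The genes whose profile over the 6 libraries came closest to that of *Adamts15* were *Hp*, *Sorl1* and *C3*. Closeness was the root mean square difference of log2 values after centring each gene on its own mean, and it was 0.59 for *Hp*, 0.71 for *Sorl1* and 0.71 for *C3*, with a median of 2.73 over genes. *C3*, the central complement component, had 1930, 60000 and 9170 normalised reads in WT and 2910, 114000 and 12000 in CharmeKO. *Hp*, the haemoglobin-binding protein haptoglobin, had 12.8, 770 and 255 in WT and 27.9, 3210 and 283 in CharmeKO. Both also had the libraries numbered 2 highest and those numbered 1 lowest. Among the members the closest profile was that of *Adamts9*, at 2.14.

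**Figure D1:**
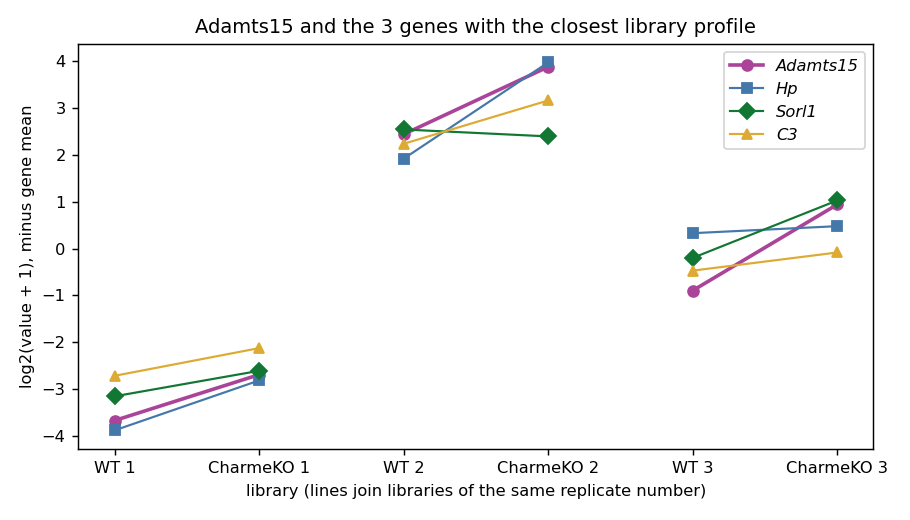
Values of *Adamts15*, *Hp*, *Sorl1* and *C3* as log2(normalised reads + 1) minus each gene's mean over the 6 libraries (y axis), by library (x axis); lines join the WT and CharmeKO libraries of one replicate number. The libraries numbered 1 are the lowest and those numbered 2 the highest for each of the 4 genes.

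*Adamts8*, the genomic neighbour of *Adamts15* and a protease known to restrain blood vessel growth (ENSMUSG00000031994, chr9:30942562-30963838, plus strand, overlapping *Gm29724* on the other strand), was barely expressed. WT 1 to 3 gave 9, 2 and 5 reads and CharmeKO 1 to 3 gave 18, 31 and 3. CharmeKO 1 and CharmeKO 2 exceeded every WT library, while CharmeKO 3 lay between the WT values. The log2 fold change was 1.12 (SE 0.965), with 0.89, 3.33 and -0.85 in the pairs. As only CharmeKO 1 and CharmeKO 2 reached the 10 reads of the filter, the gene was tested because it was high in that group, and its direction is no finding. *Adamts15* and *Adamts8* differed by 245 against 2.42 normalised reads per kb, averaged over the 6 libraries, although their loci adjoin.

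*Adamts12* was lower in CharmeKO in 3 of 3 pairs. It is a close relative of ADAMTS7 known for cutting cartilage oligomeric matrix protein (ENSMUSG00000047497, chr15:11064790-11349231, plus strand), and had 1620, 769 and 2500 normalised reads in WT and 1150, 441 and 1140 in CharmeKO. WT 3 was the highest and CharmeKO 2 the lowest library, and WT 2 lay below CharmeKO 1 and CharmeKO 3, so the groups overlapped. The means were 1630 ± 865 in WT and 912 ± 408 in CharmeKO (SD, n = 3 each), and the pairs differed by -0.49, -0.80 and -1.13. The log2 fold change of -0.81 had an SE of 0.547 in limma, and an SE of 0.155 with the replicate block, where its unadjusted p was 0.00489 and its adjusted p 0.7997. In DESeq2 with the block it was -0.81 (SE 0.212) with an adjusted p of 0.035. That call was lost without replicate 1 (adjusted p = 0.147), replicate 2 (0.988) or replicate 3 (0.385), each of which left 2 pairs. In limma the value moved to -0.35 without CharmeKO 2 and to -1.27 without WT 2, keeping its direction. The summed smooth muscle and pericyte markers put the libraries in nearly the order that *Adamts12* did, with WT 3, WT 1 and CharmeKO 1 highest and CharmeKO 2 lowest for both. *Acta2* and *Tagln* set this order, and not all markers of the list shared it. *Mylk* was highest in CharmeKO 2 (183 CPM) and lowest in CharmeKO 1 (4.59), and *Rgs5* and *Kcnj8* were highest in WT 2. The part of these markers in the result was not tested.

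*Adamts20*, the closest relative of *Adamts9* and a gene known from pigment cell development (ENSMUSG00000022449, chr15:94270163-94465418, minus strand), had 2, 0 and 5 reads in WT and 2, 2 and 1 in CharmeKO. No difference was detectable at this depth. The 0 in WT 2 allows up to 0.0783 CPM by a floor of 3 reads, and such floors cover counting error only.

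**Figure D2:**
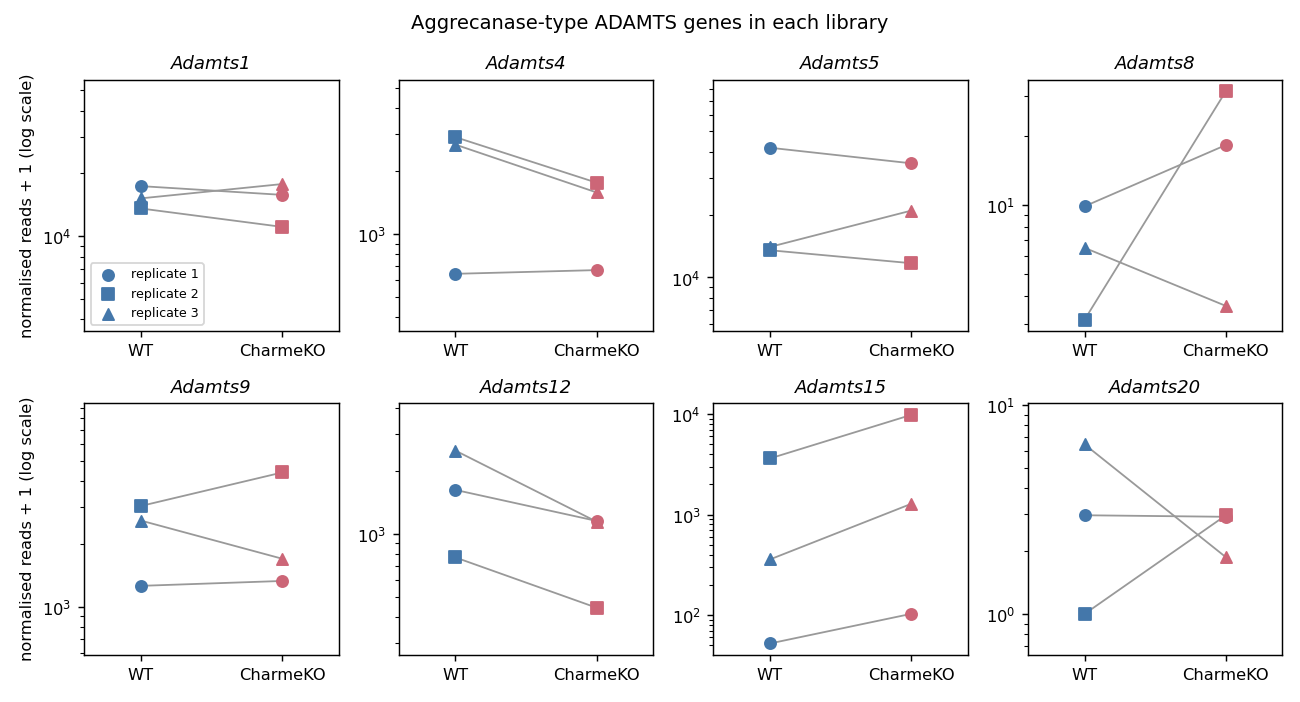
Normalised reads of the 8 genes in the 3 WT and 3 CharmeKO libraries (y axis, log scale of value + 1), each library as a point whose shape gives its replicate number; lines join equal numbers and each panel has its own scale. *Adamts15* spreads over a 192-fold range, and the WT and CharmeKO points overlap for each of the 8 genes.

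The make-up of the group's RNA varied from library to library. Summed over the 8 genes, the level was 7520, 5040 and 5170 normalised reads per kb in WT and 6590, 4820 and 5970 in CharmeKO. *Adamts1* and *Adamts5* together gave 95%, 75.6% and 80.7% of this sum in WT and 94.7%, 65.7% and 88.8% in CharmeKO. CharmeKO 2 had the lowest share of the pair. *Adamts15* filled most of the gap there, with 19.7% of the sum, against 0.0657%, 6.94% and 0.667% in WT and 0.149% and 2.07% in CharmeKO 1 and CharmeKO 3. *Adamts4* gave 1.78%, 12% and 10.8% in WT and 2.12%, 7.57% and 5.51% in CharmeKO, and *Adamts9* between 1.11% and 6.06% in any library. The mean share of *Adamts15* was 4.74 percentage points higher in CharmeKO, and this difference was -1.44 points without CharmeKO 2.

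**Figure D3:**
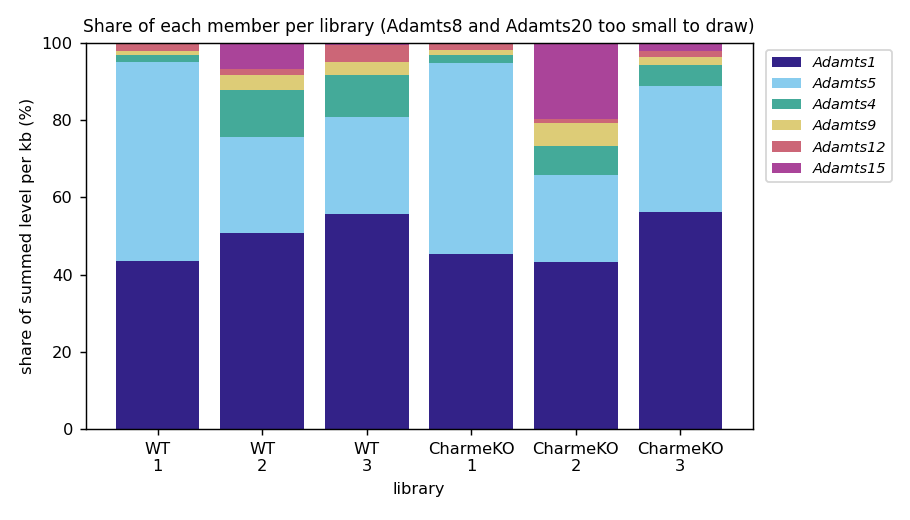
Share of the 8 genes' summed level (y axis, percent of normalised reads per kb of exon) in each library (x axis), stacked by gene. *Adamts1* and *Adamts5* fill 65.7% to 95% of each bar, and *Adamts15* reaches 19.7% in CharmeKO 2.

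The counts over the group, read against those over all 15948 genes, were as follows. In limma 0 of 7 members passed the adjusted threshold and 0 had an unadjusted p under 0.05, where 0% and 0.897% of all genes did. With the replicate block, *Adamts12* and *Adamts15* had an unadjusted limma p under 0.05, 2 of 7 members, where 5.37% of genes did. DESeq2 called 0 of 7 without the block, against 0.0502% of genes, and 2 of 7 with it, against 0.401%. edgeR called 0 members and 0 genes with or without the block, and 158 and 768 genes had an unadjusted p under 0.05 in these fits. Of the members, 1 was higher in CharmeKO in 3 of 3 pairs, against 16.4% of genes, and 1 was lower in 3 of 3 pairs, against 14.0%. No tested member had groups that did not overlap, where 4.11% of genes did.

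**Figure D4:**
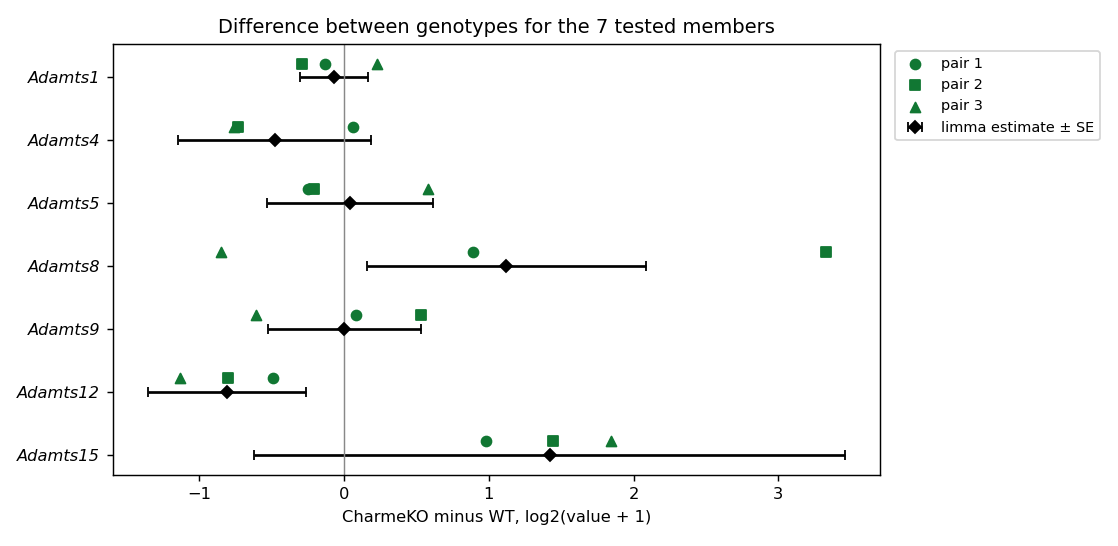
CharmeKO minus WT difference in log2(normalised reads + 1) (x axis) for the 7 tested genes (y axis), with the limma estimate and its SE as diamonds and bars and the 3 pairs as points. *Adamts12* has 3 pairs below 0 and *Adamts15* 3 pairs above 0, from 0.98 to 1.84, while the other 5 genes have pairs on both sides.

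The genes around these proteases were read from lists set by role. Of 90 listed genes 81 were in the table and 75 were tested, 36 of them higher and 39 lower in CharmeKO (median log2 fold change -0.037). By limma 0 passed the adjusted threshold and 1 of the 75 had an unadjusted p under 0.05, where 0.897% of all genes did. That gene was *Adamts6*, a protease of the same family that acts on microfibrils, with 448, 1130 and 882 normalised reads in WT and 336, 275 and 194 in CharmeKO. All CharmeKO libraries of *Adamts6* lay below all WT libraries. It was the 1 gene of the 75 whose groups did not overlap, where 4.11% of all genes had groups apart in either direction. Its log2 fold change was -1.54 (SE 0.403). In limma its unadjusted p was 0.00735 and its adjusted p 0.9999, and DESeq2 with the replicate block gave an adjusted p of 0.0499. This p was 2.52e-06, 1 and 0.316 without replicates 1, 2 and 3. Of 7 tested ADAMTS proteases outside the aggrecanase group, 3 were higher and 4 lower. *Adamts7*, the relative of *Adamts12*, had 348, 955 and 577 normalised reads in WT and 441, 2120 and 751 in CharmeKO, higher in 3 of 3 pairs (log2 fold change 0.62, SE 0.634), the opposite sign to *Adamts12*, a contrast that was not tested. The fold changes of the procollagen peptidases *Adamts2* and *Adamts14* were 0.26 (SE 0.306) and -0.13 (SE 0.377), and that of *Adamts10*, a microfibril-associated protease, was -0.25 (SE 0.370). Of 6 tested ADAMTS-like genes, which lack the protease domain, 5 were lower and 1 higher. *Adamtsl1* had 68.9, 226 and 338 normalised reads in WT and 88.5, 59 and 87.8 in CharmeKO (log2 fold change -1.17, SE 0.620), while *Papln* was below the filter.

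Among the substrates, the hyaluronan-binding proteoglycans and their partners counted 2 higher and 4 lower of 6 tested (median -0.273). *Vcan*, which encodes versican, had 5820, 13500 and 18900 normalised reads in WT and 5110, 5370 and 18300 in CharmeKO. It was lower in each pair, but the groups overlapped (log2 fold change -0.52, SE 0.631), and the fold change was -1.12 without CharmeKO 3 and -0.15 without WT 3. *Acan*, which encodes aggrecan, was near the limit of detection, with 31.5, 0 and 39.5 in WT and 7.69, 0.983 and 2.61 in CharmeKO (-1.47, SE 1.53). It passed the filter through WT 1 and WT 3 alone, which favoured its lower direction, and without it the list counted 2 higher and 3 lower with a median of -0.026. The log2 fold change of the hyaluronan receptor *Cd44* was -0.66 (SE 0.625), and *Hapln1* was not analysed here. Other matrix substrates split 5 to 5. *Dcn*, which encodes decorin, was higher in 3 of 3 pairs, with 21100, 38800 and 14100 in WT and 25700, 98900 and 23400 in CharmeKO (0.79, SE 0.647), and the fold change was 0.12 without CharmeKO 2. *Bgn*, *Nid1* and *Thbs1*, for biglycan, nidogen and thrombospondin, had log2 fold changes of -0.10 (SE 0.390), 0.03 (SE 0.675) and -0.30 (SE 0.667). Genes that build the chondroitin sulfate chains counted 8 higher and 13 lower of 21 (median -0.079), and the chain-elongating *Chsy1* was at -0.09 (SE 0.265).

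The inhibitors were abundant. *Timp3*, the main tissue inhibitor of ADAMTS4 and ADAMTS5, had 201000, 54200 and 124000 normalised reads in WT and 192000, 56000 and 134000 in CharmeKO. It was highest in the libraries numbered 1, as *Adamts5* was, and its log2 fold change was 0.03 (SE 0.665). *Lrp1*, the receptor that clears these enzymes from the cell surface, had 144000, 221000 and 203000 in WT and 131000, 189000 and 201000 in CharmeKO, lower in each pair (-0.12, SE 0.411). *Timp1* and *Timp2*, which act mainly on matrix metalloproteinases, were at 0.23 (SE 0.661) and 0.15 (SE 0.432), and *Timp4* was below the filter. In all, 3 of 4 tested inhibitor and clearance genes were higher and 1 lower (median 0.092).

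Activating proteases and cofactors split 4 to 4 (median -0.043). *Furin*, the proprotein convertase that activates many ADAMTS precursors, had 9120, 5290 and 8940 normalised reads in WT and 8470, 5580 and 6920 in CharmeKO (log2 fold change -0.13, SE 0.278). Its relative *Pcsk6* had 1610, 3830 and 2240 in WT and 1880, 1180 and 1060 in CharmeKO (-0.85, SE 0.371), and *Pcsk5* was at 0.57 (SE 0.715). *Fbln1*, a cofactor of ADAMTS1, had 3030, 17500 and 2730 in WT and 4340, 22000 and 4990 in CharmeKO, higher in 3 of 3 pairs (0.57, SE 0.906). *Sdc4*, a syndecan that takes part in ADAMTS5 activation, was at 0.25 (SE 0.419). Of 13 tested inflammatory cytokine and receptor genes, which include known inducers of *Adamts4*, 10 were higher and 3 lower (median 0.187), with 0 past the adjusted threshold in limma. *Il1a* and *Osm*, named here after their values were seen, passed the filter through CharmeKO libraries alone, and without them 8 were higher and 3 lower (median 0.123). *Il1r1* had 1630, 3600 and 3230 in WT and 1760, 7230 and 2420 in CharmeKO (0.23, SE 0.572), and *Il6* was at 0.20 (SE 0.237).

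**Figure D5:**
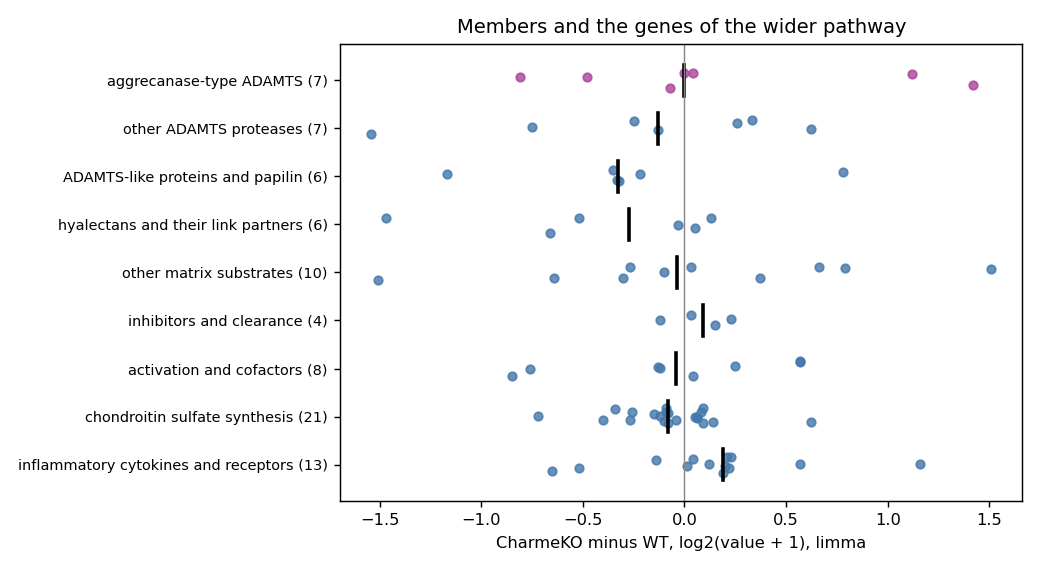
CharmeKO minus WT log2 fold change (x axis) of each tested gene in the aggrecanase group and the 8 surrounding lists (y axis), 1 point per gene with the list median as a bar. *Adamts6* at -1.54 is the 1 of 75 surrounding genes whose WT and CharmeKO libraries do not overlap, where 4.11% of all genes do not. The list medians lie between -0.324 and 0.187.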

How the data were processed

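The authors extracted total RNA, selected poly(A) RNA with a directional kit, aligned reads with STAR, counted them per gene on the reverse strand with Ensembl annotation plus *Charme*, dropped low-count genes and scaled the counts by DESeq2 size factors. The submitters' notes name both GRCm39 and GRCh38, while the annotation release in the study's methods is one made for GRCm38. The deposited values are therefore a normalised read signal, not raw counts. Dividing by the value of 1 read gave whole reads for 100% of 116676 values (largest deviation 3.5e-09). Depth was 38330019 to 46797446 reads, so 3 reads correspond to 0.0641 to 0.0783 CPM.

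The 15948 genes that reached 10 reads in 2 or more libraries were tested for genotype in all 6 libraries with limma 3.58.1 (trend, two-sided, log2(value + 1), Benjamini-Hochberg adjusted p under 0.05), in R 4.3.3. edgeR 4.0.16 and DESeq2 1.42.0 on recovered reads, other scalings, pseudocounts of 0.5 and 5, no filter, a mean of at least 50 reads, the replicate block and leaving out libraries were alternatives. Titles share replicate numbers across genotypes. Deviations from group means correlated at 0.762, 0.514 and 0.217 within numbers, each above 0.1, so the numbers were treated as pairs. The unmatched WT 2 and CharmeKO 3 correlated at 0.222, so pair 3 was no closer than this mismatch. Other unmatched combinations were negative, from -0.643 to -0.0762. As each gene was centred on its group mean, positive values within numbers must be offset by negative ones between them. The negative values are therefore no separate evidence of pairing. Pairing by number comes from the data, not the labels.

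Members were named by symbol. All members, a set of pathway genes picked by role and the 3 genes with the profile closest to *Adamts15* are named. Members and lists were chosen with earlier results of these data known. Lengths, positions and coding bases come from a GENCODE annotation on GRCm38, and lengths are the union of a gene's exons.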

Additional observations from a re-analysis of the deposited data

How the results depend on the processing

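Leaving out the low-value filter, another scaling, another pseudocount, the filter on mean reads, edgeR and the replicate block in limma or edgeR gave 0 members, 0 pathway genes and 0 genes past the adjusted threshold, as in limma without the block; under a mean of at least 50 reads *Adamts8* could not be tested. DESeq2 called 8 genes, and with the replicate block 64 genes, 2 members (*Adamts12*, *Adamts15*) and 1 pathway gene (*Adamts6*). With libraries or pairs left out, calls ranged from 0 to 151 genes, 0 to 1 members and 0 to 5 pathway genes. DESeq2 with the block called 151, 13 and 86 genes without replicates 1, 2 and 3, of which 37, 9 and 31 were among the 64. The block changed no other call among the members. *Adamts5* was at -0.028 in edgeR and -0.037 in DESeq2, and *Adamts9* at -0.002 in DESeq2 with the block. The causes were not tested.

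With libraries or pairs left out, log2 fold changes ranged from -0.22 to 0.13 for *Adamts1*, -0.35 to 0.57 for *Adamts5*, -0.51 to 0.35 for *Adamts9* and -0.17 to 3.12 for *Adamts15*. *Adamts4* (-1.18 to -0.041), *Adamts8* (0.004 to 2.29) and *Adamts12* (-1.27 to -0.35) kept their direction in the 23, 22 and 23 alternatives that gave a value. Among the pathway genes the ranges with libraries or pairs left out were -0.36 to 0.82 for *Timp1*, -0.083 to 0.41 for *Timp2*, -0.48 to 0.54 for *Timp3*, -0.31 to 0.068 for *Lrp1*, -0.39 to 0.018 for *Furin*, -0.39 to 1.55 for *Pcsk5*, -0.15 to 0.58 for *Sdc4*, -0.17 to 1.44 for *Fbln1*, -0.45 to 0.18 for *Adamts14*, -0.001 to 1.13 for *Adamts7*, -0.27 to 0.16 for *Bgn*, -0.71 to 0.57 for *Nid1*, -0.59 to 0.15 for *Thbs1*, -0.29 to 0.11 for *Chsy1*, -0.37 to 0.65 for *Il1r1* and -0.071 to 0.43 for *Il6*. Ranges that kept 1 sign were -1.12 to -0.11 for *Vcan*, -3.2 to -0.46 for *Acan*, -1.26 to -0.19 for *Cd44*, -1.39 to -0.42 for *Pcsk6*, 0.12 to 1.17 for *Dcn*, -2.11 to -1.22 for *Adamts6*, 0.018 to 0.54 for *Adamts2*, -0.59 to -0.015 for *Adamts10* and -1.95 to -0.69 for *Adamtsl1*. The share of *Adamts15* differed by 4.74 points with exon-union lengths and 6.46 with longest transcripts, and by -1.44 to 8.31 points with single libraries left out. With 3 libraries a group, and 31 reads or fewer for *Adamts8* in any library, depth and number limit what could be detected.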

Other observations

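Some substrates of these proteases differed between genotypes in the pairs numbered 2 and 3 far more than in pair 1. These genes were chosen after their values were seen and carry no test of that pattern. *Nid2*, which encodes a basement membrane nidogen, had 25900, 28900 and 26200 normalised reads in WT and 21900, 75000 and 274000 in CharmeKO, with pair differences of -0.24, 1.38 and 3.39 on the log2 scale. *Thbs2*, which encodes a thrombospondin, had 7990, 9270 and 19600 in WT and 12900, 129000 and 3420 in CharmeKO, with pair differences of 0.69, 3.80 and -2.52. *Tfpi2*, which encodes a serine protease inhibitor of the matrix, had 462, 57.7 and 270 in WT and 500, 141 and 3.48 in CharmeKO, with pair differences of 0.11, 1.27 and -5.92. CharmeKO 2 and CharmeKO 3 lay on opposite sides of their WT partners for *Thbs2* and *Tfpi2*, and CharmeKO 1 stayed closer to WT 1 for each of the 3 genes. A small difference in pair 1 was not particular to substrates. *Acta2* differed by -0.10, -1.75 and -2.95 in the pairs and *Thy1* by -0.04, -0.50 and -3.47. Over all tested genes, deviations from group means correlated at 0.762 in pair 1, 0.514 in pair 2 and 0.217 in pair 3. Not every gene was closest in pair 1: *Adamts5* differed by -0.25, -0.21 and 0.58.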
